A study of Homo sapiens with 6 samples.

Results

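Human transcripts annotated as nonsense-mediated decay (NMD) targets were described in single-cell RNA-sequencing libraries of mixed human and mouse cells. A transcript was a member if its Ensembl identifier, taken without its version, had the transcript biotype nonsense-mediated decay in GENCODE release 44. Of 46484 human transcript identifiers in the 5 count matrices, 42740 (91.9%) matched that release, and 4373 of them, from 2862 genes, were members. These were 20.4% of the 21384 NMD transcripts of the annotation. In all 5 matrices, 297 members were present.

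NMD is a surveillance pathway that degrades messenger RNAs whose stop codon is read as premature. Ribosomes normally strip the exon junction complexes from a messenger RNA as they translate it. A stop codon that lies well before the last exon junction leaves such a complex behind, which recruits the UPF proteins and leads to decay of the RNA. Many genes of ribosomal proteins and splicing factors make such transcripts through alternative exons, called poison exons, and some regulate their own level in this way. The biotype in the annotation is a prediction from the position of the stop codon, not a measurement of decay.

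The labels gave a mix of cell lines, spelled JJN3 and 5TGMG1, for every sample. JJN3 is a human plasma cell myeloma line, and the other line is a mouse myeloma. The labels give no treatment, and each group was 1 library, so no difference below has a replicate check and no p-value is given. Drop-seq, a droplet method that pairs cells with beads, gave libraries of 25, 30 and 35 PCR cycles with 1000, 500 and 500 cells in their labels, and 10X Chromium gave libraries of 30 and 35 cycles with 2000 cells each. Per the study's methods, the amplified cDNA was split before the last cycles, so the 30- and 35-cycle libraries of a platform came from the same captured cells. A sixth sample with read numbers only was not used. Values below are given in the order 25-, 30- and 35-cycle Drop-seq, then 30- and 35-cycle 10X.

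Barcodes were ranked by their counts, the number of cells in the label was kept, and those with at least 90% of counts on human transcripts were taken as human cells. The species cut removes barcodes that mix both species, while doublets of 2 human cells were not looked for and remain. Human cells numbered 251, 166, 165, 1006 and 911. They held 115245, 67144, 93499, 161961 and 199308 human counts of unique molecular identifiers (UMIs), the short tags by which PCR copies of 1 molecule are counted once. No stored value was below 2 in 10X or below 3 in Drop-seq at 30 and 35 cycles, while the 25-cycle table held values from 1 up, so low entries were missing from 4 tables rather than 0. Of the human cell barcodes, 722 were shared by the 10X pair and 145 by the 30- and 35-cycle Drop-seq libraries, while the 25-cycle library shared 135 and 133 with these. No barcode of a human cell was shared between the platforms.

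The human cells of the Drop-seq libraries went against the labelled line. Of 10 plasma cell genes, 10 were counted in both 10X libraries, with 8542 and 16061 counts in sum. MZB1 alone was counted in Drop-seq, with 15, 5 and 7 counts, and the defining genes SDC1, PRDM1, JCHAIN and IGLL5 were at 0 there. Of 15 T cell genes, 10, 6 and 7 were counted in Drop-seq with 353, 239 and 298 counts in sum, CD3G, TRBC1 and CD1E among them. Other genes of this list went the other way. CD247, ZAP70, LAT, CD28 and CD5 were at 0 in Drop-seq, and TRAC and LCK had 3 and 2 counts at 25 cycles only. In 10X the T cell genes had 4 and 2 counts in sum, and CD3D, CD3E and CD3G were at 0. The study's text also names Jurkat, a T cell leukaemia line, in places. Any difference between the platforms can therefore not be told apart from a difference between human lines, and comparisons of cycle numbers below were made within a platform only.

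The biotype rests on a stop codon that lies before the last exon junction, which the bases up to the stop do not show. Of the members, 10.5% share their stop with a coding transcript of the gene. RPS15A-208 is among these, and none of them is shown here. Below, the last 30 bases up to and including the stop codon (in capitals) are shown for members of 4 genes that lead the NMD counts, each beside the canonical coding transcript of its gene, and for 2 members that held all counts of their gene. They are spliced, 5′ to 3′ and from GENCODE release 44 on hg38.
RPS3-216: ggagttgagaacacagaatgttcttggTGA
RPS3-217, coding: gccatgccccagccagtccccacagcaTAA
ACTB-203: gagaagatgacccaggactctcttctcTGA
ACTB-217, coding: ccctccatcgtccaccgcaaatgcttcTAG
RACK1-210: ggatgtgctgagtgtggccttctcctcTGA
RACK1-227, coding: gtgtggcaggtgaccattggcacacgcTAG
LRRK1-205: gacatggtctacatggttgcagtgatgTGA
LRRK1-201, coding: ctggaggcttgcactcgcaagagaaggTAA
CYP46A1-204: acgagtcctgagtcggttaagttccatTAG
MIPOL1-210: tcaagaagaaaatctgaaggatcagttTAA

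RPS3-216 (chr11:75399519-75405692, plus strand, 7 exons) had 132 coding bases before its stop, against 729 in the canonical RPS3-217. Its stop lay 553 bases before the last exon junction. ACTB-203 (chr7:5527156-5530601, minus strand, 7 exons) ended its reading frame after 375 coding bases, against 1125 in ACTB-217, and its stop lay 647 bases before the last junction. RACK1-210 (chr5:181236926-181243889, minus strand, 8 exons) had 348 coding bases against 951, with a stop 541 bases before the last junction. LRRK1-205 (chr15:101053337-101078254, plus strand, 10 exons) is annotated without its start and had its stop 66 bases before the last junction. CYP46A1-204 (chr14:99684304-99713437, plus strand) and MIPOL1-210 (chr14:37198037-37507790, plus strand) had their stops 334 and 183 bases before the last junction. The stop codon lay at least 50 bases before the last junction in 99.9% of annotated NMD transcripts, and in all members counted in human cells of the 30- and 35-cycle libraries.

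Members took 7.54% of human counts in human cells of the 25-cycle Drop-seq library (exact Clopper-Pearson interval 7.39 to 7.69%), which was 8687 of 115245 counts. The share was 7.36% (7.16 to 7.56%) at 30 cycles and 7.60% (7.43 to 7.77%) at 35 cycles in Drop-seq. In 10X it was 5.05% (4.94 to 5.15%) at 30 cycles and 4.52% (4.42 to 4.61%) at 35 cycles. The 3 Drop-seq shares lay within 0.3 percentage points of each other, and both 10X shares lay below all of them. Intervals cover counting error only, since copies made by PCR and filtered entries are not independent molecules.

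The typical human cell gave the same picture. The median share per cell was 7.21%, 7.19% and 7.24% in Drop-seq, with 4.58% and 4.23% in 10X. At least 1 NMD count was present in 97.6%, 94.6% and 98.8% of human cells in Drop-seq and in 91.7% and 96.0% in 10X, at median depths of 271, 243, 352, 118 and 171 UMIs per cell. Mouse cells, which should lack human transcripts, had a human NMD count in 47.5%, 3.09%, 5.83%, 2.49% and 1.25% of cells, at median depths of 282.5, 278, 417, 117 and 171 UMIs. The high value of the 25-cycle library came down to 0.847% when values below 3 were left out, as they are missing from the other Drop-seq libraries. In 10X it then came to 0 of 804 and 0 of 880 mouse cells, with upper limits of 0.458% and 0.418%, against 26.7% and 37.9% of human cells.

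Leaving out values below 3 in every library kept the Drop-seq shares at 7.43%, 7.36% and 7.60% and lowered the 10X shares to 2.88% (2.74 to 3.04%) and 2.16% (2.06 to 2.26%). In 10X, 89.2% and 86.4% of NMD entries had the smallest stored value of 2. Most NMD counts of 10X thus lay in entries at or near the lower limit of what was stored. They fell from 8174 to 1386 at 30 cycles and from 9000 to 1826 at 35 cycles when values below 3 were left out. Most human counts of 10X as a whole lay there too, and fell from 161961 to 48043 and from 199308 to 84592. At 30 cycles the Drop-seq share was 2.55 times the 10X share (2.41 to 2.70) on the common minimum of 3.

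**Figure D1:**
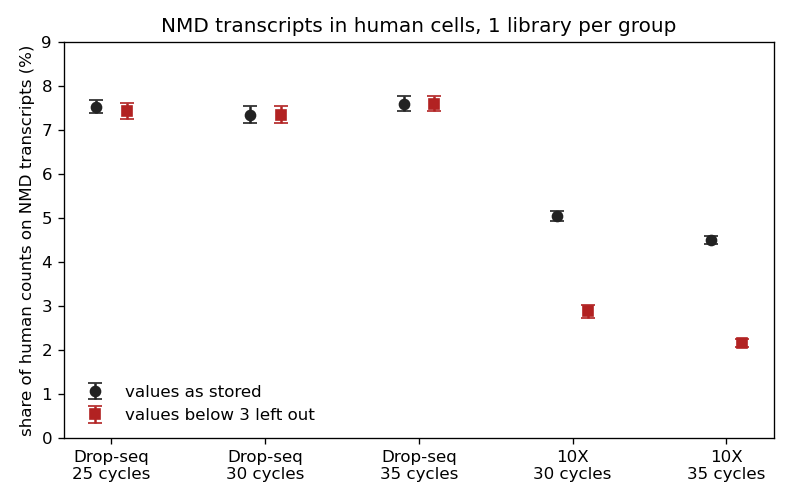
Share of human counts on NMD transcripts (vertical axis, percent) in human cells of each library (horizontal axis). Points are single libraries, bars are exact Clopper-Pearson intervals for counting error, circles use all stored values and squares leave out values below 3. The Drop-seq libraries lie between 7.36% and 7.60% either way, and the 10X libraries fall from 5.05% and 4.52% to 2.88% and 2.16%.

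Coding transcripts and transcripts with a retained intron were set beside the NMD transcripts. Retained-intron transcripts took 6.30% (6.16 to 6.44%), 5.92% (5.74 to 6.10%) and 6.20% (6.05 to 6.36%) of human counts in Drop-seq, and 8.57% (8.44 to 8.71%) and 6.73% (6.62 to 6.84%) in 10X. NMD transcripts thus had more counts than retained-intron transcripts in each Drop-seq library and fewer in each 10X library. Protein-coding transcripts took between 70.0% and 74.1% of human counts in all 5 libraries.

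Between 521 and 1428 members were detected per library. The numbers were 1058, 521 and 646 in Drop-seq, with 1376 and 1428 in 10X, from 767, 400, 489, 1093 and 1119 genes. Drawn down to the 67144 human counts of the shallowest library, the expected numbers were 873, 521, 642, 1038 and 973. The 10X libraries thus held more different members at a lower share of counts. This order turned when values below 3 were left out of every library and the counts were drawn down to 48043, which gave 437, 517, 621, 140 and 195 members. Over all libraries, 2806 members had a count in human cells, of which 121 were counted in all 5 libraries and 1562 in 1 library only. The most abundant 10 members took 20.0%, 19.3% and 19.0% of NMD counts in Drop-seq and 26.7% and 30.0% in 10X.

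The genes that led the NMD counts encode ribosomal proteins, a ribosome-bound scaffold, actin and ferritin, together with LRRK1 and HINT1. Ordered by their mean NMD counts per 1000000 human counts (CPM) over the 5 libraries, not divided by length, they were RPS15A, RPS3, ACTB, RPL13A, RACK1, LRRK1, RPLP0, RPL29, FTH1 and HINT1. All ribosomal protein genes together, a group chosen after the values were seen, gave 27.8%, 27.8% and 26.3% of NMD counts in Drop-seq and 10.8% and 12.5% in 10X. These genes also took 26.0%, 26.0% and 25.2% of all human counts in Drop-seq against 6.52% and 7.08% in 10X. Within them, the NMD share of counts was 8.06%, 7.88%, 7.93%, 8.33% and 7.98%, which is nearly the same on both platforms. Outside them it was 7.35%, 7.18% and 7.49% in Drop-seq, with 4.82% and 4.25% in 10X.

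The small-subunit genes RPS15A and RPS3 each carried several counted NMD models. RPS15A had 558, 294, 451, 72 and 31 NMD counts, mostly on RPS15A-208, RPS15A-207 and RPS15A-212. The stop codon of RPS15A-208 is that of the canonical RPS15A-201, and the last junction of RPS15A-208 lies 145 bases behind it, while RPS15A-201 has its stop in the last exon. RPS3, which also has a role in DNA repair, had 365, 205, 201, 156 and 294 NMD counts. Of these, RPS3-216 had 199, 115, 116, 100 and 188. Per human counts, the NMD transcripts of RPS15A had 4842, 4379 and 4824 CPM in Drop-seq, with 445 and 156 CPM in 10X. Those of RPS3 had 3167, 3053 and 2150 CPM in Drop-seq, with 963 and 1475 CPM in 10X.

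For large-subunit genes the platforms differed in both directions. RPL13A-214 had 2421, 2174 and 2107 CPM in Drop-seq, with 123 and 90.3 CPM in 10X. RPL29-205 had 260, 328 and 257 CPM in Drop-seq, with 2007 and 2062 CPM in 10X. RPLP0, which forms the ribosomal stalk, had its NMD counts on RPLP0-214, at 1388, 1296 and 1369 CPM in Drop-seq against 605 and 778 CPM in 10X. The CPM of the platforms, from values as stored, did not overlap for any of these 3 transcripts. The share of all human transcripts without such overlap was not computed, so this gives no result about members. By another measure, differences were common: at 30 cycles, with values below 3 left out, 89.7% of 291 human transcripts differed 2-fold or more.

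ACTB, cytoplasmic beta-actin, and LRRK1, a leucine-rich repeat kinase, led in 10X. ACTB-203 had 729, 462 and 567 CPM in Drop-seq, with 3779 and 2930 CPM in 10X, where it was the first and the second most counted member. LRRK1-205 had 182, 44.7 and 171 CPM in Drop-seq, from 21, 3 and 16 counts, and 2130 and 3256 CPM in 10X. RACK1, a scaffold protein of the small ribosomal subunit, FTH1, the heavy chain of ferritin, and HINT1, a small hydrolase, were higher in every Drop-seq library than in 10X. Their leading transcripts RACK1-210, FTH1-210 and HINT1-206 had 86, 42, 68, 24 and 38 counts, 84, 48, 60, 12 and 18 counts, and 101, 55, 58, 5 and 8 counts. For this order of the platforms, too, the share of all human transcripts was not computed.

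**Figure D2:**
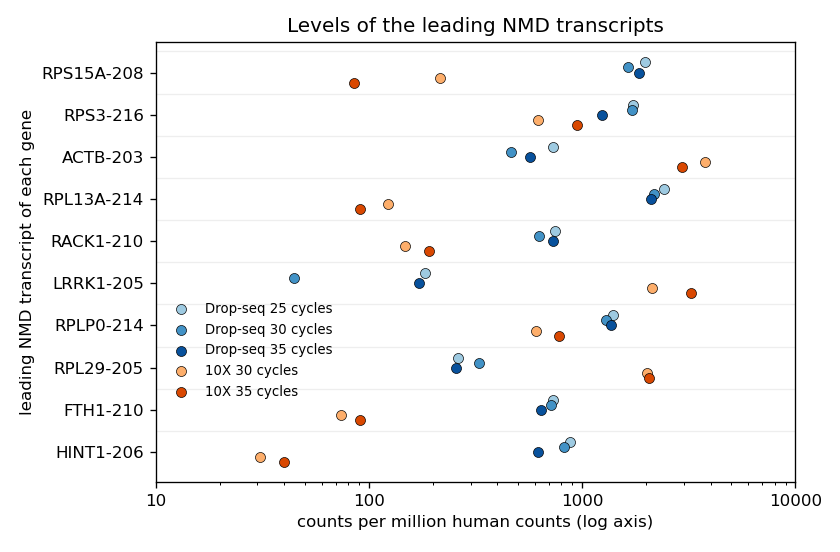
Level of the leading NMD transcript of each of the 10 genes (horizontal log axis, CPM in human cells), 1 point per library and no error bars, since each group is 1 library. ACTB-203, LRRK1-205 and RPL29-205 lie higher in both 10X libraries, and the other 7 transcripts lie higher in all Drop-seq libraries. The share of all human transcripts that separate by platform in this way was not computed. By another measure, of 291 human transcripts compared at 30 cycles, with values below 3 left out, 89.7% differed 2-fold or more between the platforms.

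The share of a gene's counts that fell on its NMD transcripts varied far less than the level. In RACK1 it was 70.7%, 74.4% and 74.4% in Drop-seq, with 72.9% and 74.0% in 10X. In RPS3 it was 41.6%, 44.2%, 41.5%, 43.1% and 42.4%, and in ACTB 30.4%, 28.2%, 30.5%, 29.4% and 32.0%. LRRK1 lay between 47.7% and 50.4%, although its level differed more than 10-fold between the platforms. RPL13A was the exception among the 10, with 25.5%, 27.6% and 26.7% in Drop-seq against 31.2% and 39.1% in 10X, the latter from 64 and 46 gene counts.

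**Figure D3:**
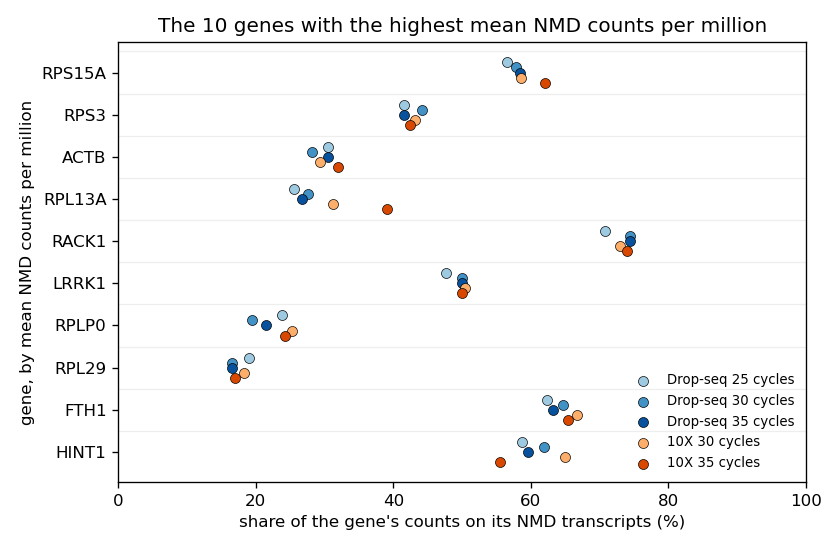
Share of each gene's counts on its NMD transcripts (horizontal axis, percent) for the 10 leading genes, 1 point per library. The 5 points of a gene lie together, as for RACK1 at 70.7% to 74.4% and RPS3 at 41.5% to 44.2%, with the widest spread in RPL13A at 25.5% to 39.1%.

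Over all genes with an NMD model in the annotation, the NMD share of the gene's counts was 15.3%, 15.2% and 15.7% in Drop-seq, with 13.0% and 13.1% in 10X. These genes took 49.3%, 48.5% and 48.4% of human counts in Drop-seq against 38.9% and 34.4% in 10X. Both the share within genes and the weight of these genes were thus lower in 10X. Of 23 genes with an NMD count and at least 50 counts in every library, RACK1 and RPS15A had a mean NMD share of 50% or more, and the median was 12.5%. Within the same gene, the NMD share at 35 cycles less that at 30 cycles had a median of 0 percentage points over 93 genes in 10X, with 40 genes higher and 40 lower. In Drop-seq the median was 0.037 percentage points over 89 genes, with 46 higher and 31 lower.

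Several of these shares lie near simple fractions, and the entries of single cells show the values behind them. The 3 leading NMD transcripts of RACK1 had 24, 22 and 24 counts at 30 cycles in 10X beside 24 of the coding RACK1-227, and all 4 had 38 at 35 cycles. All stored values of RACK1 transcripts were the same in 28 of 35, 10 of 10 and 12 of 13 human cells with at least 2 of them in Drop-seq, and in 12 of 12 and 19 of 19 in 10X. RPL11-204 and 3 coding transcripts of RPL11 had 73 counts each at 30 cycles in 10X. FTH1 divided into 3 transcripts of 12 counts, of which 2 were NMD transcripts. LRRK1-205 and the coding LRRK1-201 had 345 and 340 counts.

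This pattern held for most NMD counts. The same barcode held a protein-coding transcript of the same gene with exactly the same value for 70.5%, 66.4% and 65.6% of NMD counts in Drop-seq and 67.7% and 74.0% in 10X. Most entries were small, and among entries of 5 or more it was 65.0% of 509, 65.4% of 425, 63.5% of 643, 73.9% of 23 and 85.2% of 27. Coding transcripts had an equal coding transcript of their own gene for 65.6%, 61.8%, 59.3%, 50.3% and 53.7% of their counts, and retained-intron transcripts had one for 59.7%, 56.9%, 53.5%, 36.6% and 49.7%. Whether one read was counted for several transcripts was not tested, since the files hold no reads. NMD levels and shares of a gene are those of the stored table.

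Few NMD entries exceeded the other transcripts of their gene in the same cell. There were 2468, 794, 1042, 3348 and 3678 combinations of a gene and a human cell with an NMD entry. In 75.9%, 65.5%, 62.5%, 69.1% and 74.7% the highest NMD value tied with the highest transcript of another biotype. It was above every transcript of another biotype in 1.34%, 5.92%, 7.10%, 0.568% and 0.761%, and below the highest of them in 16.5%, 22.5%, 23.0%, 4.09% and 4.62%. An entry at the smallest stored value cannot exceed another, and 89.2% and 86.4% of NMD entries in 10X were at it. No rate for another biotype was computed, so these shares are not particular to NMD transcripts. No matched transcript of the gene outside the NMD biotype was counted in 6.32%, 6.05% and 7.39% in Drop-seq and in 26.2% and 19.9% in 10X.

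**Figure D4:**
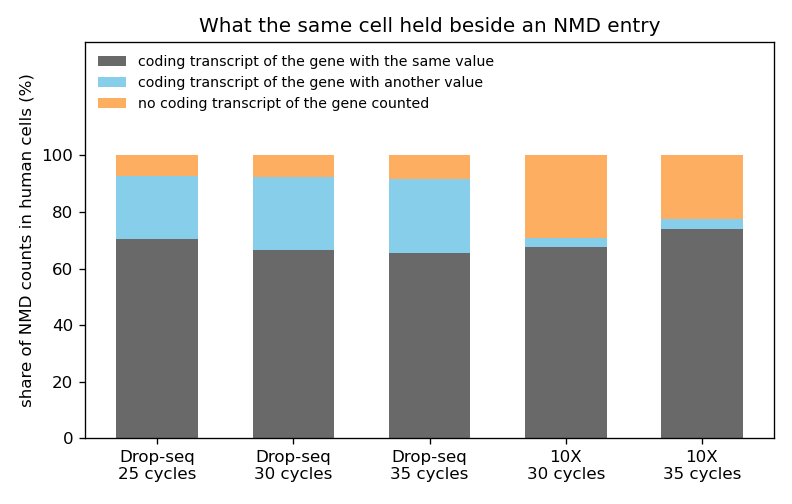
NMD counts of human cells (vertical axis, percent of NMD counts) by what the same cell held for the gene, stacked to 100% for each library. Dark grey marks counts with a coding transcript of equal value, blue a coding transcript of another value and orange no coding transcript. The grey part is 65.6% to 74.0% throughout, and the orange part is 7.23% to 8.26% in Drop-seq against 29.2% and 22.4% in 10X.

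The split also differed by where the annotation ends a member. The 3′ end of a member lay within 50 bases of that of a coding transcript of its gene for 70.7%, 69.2% and 67.6% of NMD counts in Drop-seq and for 53.3% and 61.4% in 10X. With each detected member weighing the same, it was 59.1%, 60.8% and 58.8% in Drop-seq, with 44.8% and 50.1% in 10X. Of annotated NMD transcripts, weighed in this second way, it was 45.6%. In 10X, members with such a shared end had no coding entry in the cell for 10.8% and 8.67% of their counts. Members of 10X with an end farther away had none for 45.3% and 36.4%. In Drop-seq the same values were 1.55%, 3.63% and 3.68% for shared ends and 8.41%, 8.66% and 9.91% for ends farther away.

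CYP46A1-204 and MIPOL1-210 are examples of members that end far from any coding transcript of their gene. CYP46A1 encodes cholesterol 24-hydroxylase, which acts in neurons. All 170 and 88 counts of the gene in 10X were on CYP46A1-204, from 76 and 41 cells, and none were found in Drop-seq. The 3′ end of CYP46A1-204 lay 9695 bases from the nearest coding end, and 5802 of its 6609 bases were outside coding exons of the gene. MIPOL1-210 likewise held all counts of its gene, 20, 8 and 8 in Drop-seq against 135 and 119 in 10X. Of its 7434 bases, 6274 were outside coding exons. In both genes no coding transcript was counted in any human cell.

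Read-through genes held another kind of member. BLOC1S5-TXNDC5-201 had 141 and 205 counts in 10X, and every one of its entries equalled that of a coding transcript of TXNDC5, a disulfide isomerase of the endoplasmic reticulum with which it shares 2658 exonic bases. ENST00000496634, of the unnamed gene ENSG00000255508, shares 2496 exonic bases with the elongation factor gene EEF1G and had 139, 35, 58, 19 and 60 counts. It held 50.0% of its gene's counts in the first 4 libraries and 50.8% in the last, beside 1 retained-intron transcript. At 35 cycles in 10X, 96.4% of its entries equalled that of a coding transcript of EEF1G. It also shares 1520 exonic bases with TUT1. Whether counts of these 2 members came from the genes they overlap was not tested.

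Among the cell type markers, 1 gene of each lineage had many NMD counts. CD3G, a chain of the T cell receptor complex, had 50, 32 and 35 NMD counts in Drop-seq, which were 49.0%, 43.8% and 50.7% of its counts. MZB1, a plasma cell chaperone of immunoglobulin assembly, had 130 and 180 NMD counts in 10X, 64.7% and 64.3% of its counts. Each gene thus had about the same NMD share in the libraries of its platform.

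The effect of 5 more cycles on single members was described for transcripts with at least 50 counts over both libraries of a pair, as the log2 ratio of CPM at 35 over 30 cycles with a pseudocount of 0.5 counts. A difference of 2-fold or more was called, which sets a size and tests nothing. In 10X, 40 members passed the minimum, of which 1 was higher and 11 were lower at 35 cycles, that is 2.50% and 27.5% of them. Of all 746 human transcripts, 9.52% were higher and 21% were lower, 30.6% in all. The median log2 ratio was -0.23 for members, -0.13 for all human transcripts, -0.05 for coding and -0.61 for retained-intron transcripts. When ratios were centred on the median of all transcripts, 3 members were higher and 11 lower, with no share of all human transcripts given for this setting.

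Of the 11, 3 were transcripts of TAF1D, a subunit of an RNA polymerase I factor and a host of small nucleolar RNAs. TAF1D-201, TAF1D-205 and TAF1D-207 fell from 63, 68 and 55 counts to 17, 21 and 19. TAF1D-201 fell by 2.16 on the log2 scale (counting interval -3.06 to -1.40), and all transcripts of TAF1D together fell by 1.99. MINDY2-201, of a deubiquitinase, fell by 2.11, from 47 to 13 counts, and its gene fell by 2.20. The gene total, which includes the member, moved with it in these cases, and the NMD share of TAF1D on TAF1D-201 was 16.5% and 14.4%. A coding transcript of the gene had the same value in the same cell for 69.8% and 100% of TAF1D-201 counts. For MINDY2-201 it was 100% and 84.6%, so gene and member are not independent.

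RSKR-213, TBL1XR1-221, NABP1-202, SPIN3-210, FNTA-205, RPS15A-208 and CYP46A1-204 were the other called decreases. TBL1XR1-221, of a transcriptional corepressor subunit, fell by 1.70, from 130 to 49 counts, with its gene at -1.87. NABP1-202, of a single-stranded DNA binding protein, fell by 1.78, from 129 to 46 counts, with its gene at -1.32. CYP46A1-204 fell by 1.25, from 170 to 88 counts. The called increase was ENST00000496634, from 19 to 60 counts, a log2 ratio of 1.33 (0.59 to 2.19). The next highest were PSMD7-206 at 0.97, of a proteasome lid subunit, PTMA-208 at 0.90, of prothymosin alpha, and HNRNPU-228 at 0.81.

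In Drop-seq, 40 members passed the minimum and 0 were called in either direction. Of all 556 human transcripts, 1.62% were higher and 0.36% were lower, 1.98% in all. The log2 ratios of members ran from -0.83 for ENO1-212, of the glycolytic enzyme enolase, to 0.72 for COX7A2-204, of cytochrome c oxidase. The median was 0.02 for members and -0.06 for all human transcripts. RPS15A-208 had a log2 ratio of 0.17 here (-0.18 to 0.53) and -1.32 in 10X (-2.27 to -0.47), where it had 35 and 17 counts. RPS3-216 had -0.47 in Drop-seq and 0.61 in 10X.

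Over all members the share of human counts at 35 cycles was 0.895 times that at 30 cycles in 10X (interval 0.869 to 0.921), and 1.03 times in Drop-seq (0.997 to 1.07). The decrease in 10X was 0.53 percentage points. The interval of the Drop-seq ratio included 1, but it lay above 1 under 4 alternatives: with the number of cells halved (1.05, 1.01 to 1.09), over all barcodes (1.03, 1.01 to 1.06), at 95% human counts (1.05, 1.01 to 1.09) and with matched identifiers as the denominator (1.04, 1.002 to 1.07). In human cells found in both libraries of a pair, the ratio was 0.893 (0.865 to 0.922) in 10X and 1.03 (0.990 to 1.06) in Drop-seq.

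**Figure D5:**
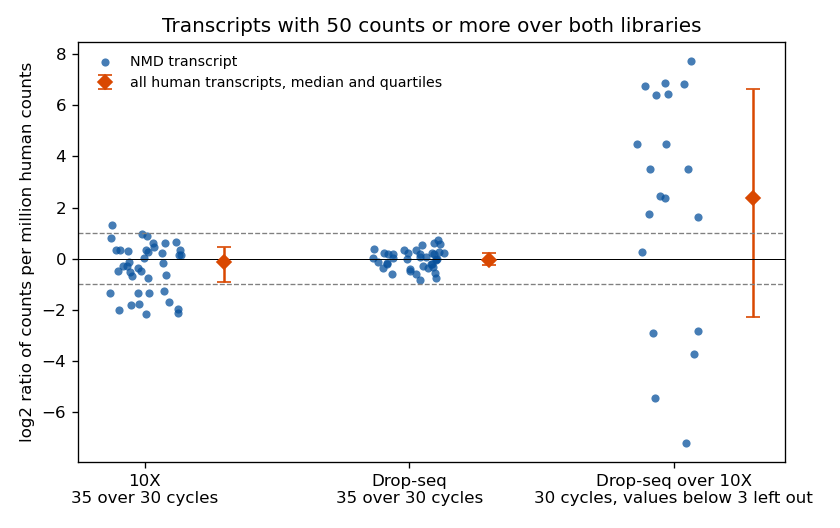
Log2 ratio of CPM (vertical axis) for NMD transcripts with at least 50 counts over both libraries (blue points, spread sideways for sight only), beside the median and quartiles of all human transcripts under the same rule (orange), in 3 comparisons. Dashed lines mark 2-fold. Members lie between -2.16 and 1.33 in 10X, between -0.83 and 0.72 in Drop-seq, and mostly beyond 2-fold between the platforms, where transcripts at 0 in 1 library are drawn with the pseudocount.

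Between Drop-seq and 10X at 30 cycles, with values below 3 left out of both, 20 members passed the minimum. Of these, 14 were 2-fold or more higher in Drop-seq and 5 were lower, or 70.0% and 25.0%, against 58.8% and 30.9% of all 291 human transcripts, 89.7% in all. Ratios centred on the median of all transcripts gave 10 higher and 6 lower. With values as stored, 22 members were higher and 18 lower of 42. For the centred and the stored values no share of all human transcripts is given, so these counts give no result about members. The median log2 ratio was 2.98 for members and 2.37 for all human transcripts. Of the 20 members, 6 were at 0 in 10X and 1 in Drop-seq once values below 3 were left out, so their ratios rest on the pseudocount and no fold is given. RPL13A-214 and RPL21-205 then had 146 and 81 counts in Drop-seq and 0 in 10X, where 20 and 8 counts were stored. TBL1XR1-221 had 0 counts in Drop-seq and 52 in 10X, where 130 were stored, and LRRK1-205 had 3 counts against 109. Platform, human line, cell number and way of counting differ together here and cannot be told apart.

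A list of 40 genes known to carry poison exons or NMD isoforms of their own regulation held 37 genes with an NMD model. It gave 532, 256, 269, 252 and 471 NMD counts. These were 15.6%, 15.1%, 12.3%, 12.1% and 15.5% of the counts of all its genes, with or without a model. RPS3 alone gave 365, 205, 201, 156 and 294 of these. Without RPS3, the genes with a model had an NMD share of 9.33%, 6.09%, 6.31%, 5.75% and 7.83%, below the 13.0% to 15.7% over all genes with a model. The list was thus carried by 1 gene, and 13 of its 40 genes had at least 20 NMD counts over the 5 libraries.

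Among the splicing factors of the list, SRSF7, a serine- and arginine-rich factor, had 18, 4, 10, 0 and 11 NMD counts, 32.1%, 25.0%, 40.0%, 0% and 40.7% of its counts. TRA2A, a splicing activator, had 1 NMD count in the 25-cycle library and 15 and 6 in 10X, where these were 23.1% and 25.0% of its counts. HNRNPM had 8 and 32 NMD counts in 10X, 23.5% and 31.1%, and HNRNPA1 had 24, 15 and 10 in Drop-seq and 0 in 10X. CIRBP, a cold-induced RNA binding protein, had 54, 20, 0, 8 and 12. SRSF1, SRSF3 and SRSF6, named after their values were seen, had 0 NMD counts in all 5 libraries, of 33, 104 and 325 counts in sum.

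Of 24 genes of the NMD machinery, 17, 12, 13, 19 and 15 were counted in human cells. UPF2, which bridges the other UPF proteins, had 78, 18, 48, 11 and 8 counts, while UPF1, the central helicase, had 0 counts in the first 4 libraries and 4 in the last. MAGOHB, a core protein of the exon junction complex, was the only gene of this list with NMD counts, with 11, 3 and 9 in Drop-seq, or 42.3%, 50.0% and 47.4% of its counts. A list of 20 genes known as NMD targets gave little. The 9 small nucleolar RNA host genes on it were at 0 in every library. Long noncoding RNA transcripts together took only between 0.19% and 0.63% of human counts. Whether the reference used for counting held these 9 genes was not tested, so their 0 need not be a low level. ATF4, the stress-induced transcription factor, had 76, 15, 15, 12 and 18 counts. NMD counts on this list numbered 2, in ASNS at 35 cycles in 10X.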

How the data were processed

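Single-cell RNA libraries of mixed human and mouse cells were sequenced by Nanopore. Per the study's methods, the authors called bases with Guppy, mapped reads to the human and mouse transcriptomes with minimap2 and deposited UMI counts per barcode and transcript as 1 table of counts for each of 5 libraries. For 10X the UMIs were collapsed with UMI-tools. For Drop-seq the methods name both UMI-tools on shortened UMIs and a homotrimer correction, and which one made the deposited tables is not given in the sources used here. Stored barcodes had 10 bases.

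The members and lists were chosen with earlier results of these data known. Scripts ran under Python 3.11.15 (scipy 1.17.1, pandas 2.3.3, numpy 2.4.6, figures by matplotlib 3.10.9) and were tested on simulated data. Identifiers were matched without their version to GENCODE release 44, which also gave exons, stop codons and coordinates on hg38. CPM are counts per 1000000 human counts in human cells, with no division by transcript length. Share intervals are 95% Clopper-Pearson. Intervals of log2 ratios of single transcripts come from the exact conditional binomial, and those of ratios of shares from a log-normal (Katz) formula. With 1 library a group no test was run. Library totals were 2311090, 528502 and 827152 counts in Drop-seq and 494147 and 740994 in 10X.

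Genes named were the 10 with the highest mean share of human counts on NMD transcripts, in each comparison the 5 members at either end of the log2 ratios, the 10 with the highest NMD share of gene counts among genes with 50 counts in every library, members of the poison exon list with at least 20 NMD counts, and the 2 other NMD lists by counts. Some of these are left out of the text. Further genes were named after their values were seen, among them CYP46A1, MIPOL1, BLOC1S5-TXNDC5, CD3G and MZB1. Alternatives changed the choice of cells, the human share asked of a barcode, the smallest value, the version match, the denominator, the minimum count, the pseudocount and the scaling, or left out entries equal to a coding entry.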

Additional observations from a re-analysis of the deposited data

Results flagged for a closer look

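The NMD share of human counts at 35 over 30 cycles had a ratio of 0.895 in 10X (0.869 to 0.921) and 1.03 in Drop-seq (0.997 to 1.07). These lie on opposite sides of 1, but the Drop-seq interval includes 1 here and lies above 1 under 4 alternatives, so an increase there is not settled. RPS3-216 had a log2 ratio of 0.61 in 10X and -0.47 in Drop-seq, and RPS3-206 had 0.64 and -0.61. All transcripts of RPS3 together had 0.64 and -0.42. Each group was 1 library, and the difference between the platforms was not tested.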

How the results depend on the processing

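With each group 1 library, no replicate could be paired or left out. In human cells found in both libraries of a pair, the share ratio was 0.893 in 10X and 1.03 in Drop-seq, with 1 member higher and 10 lower in 10X and 0 in Drop-seq. No ratio of shares at 35 over 30 cycles changed direction, while the order of the platforms in detected members turned when values below 3 were left out. Of the values that answer a comparison, 120 stayed near the main value and 67 moved, and the cause was not tested except where fewer entries or cells were used by construction. Counts of called members in this paragraph stand without the share of all human transcripts called at the same setting, so they give no result about members. At the main setting that share was 30.6% in 10X, 1.98% in Drop-seq and 89.7% between platforms. Shares and detected members are given for 25-, 30- and 35-cycle Drop-seq, then 30- and 35-cycle 10X. With entries equal to a coding entry left out, the shares were 2.35%, 2.60%, 2.75%, 1.69% and 1.21%, the detected members 392, 217, 269, 536 and 524, and the 10X ratio 0.719, with 2 members higher and 4 lower in 10X, 1 higher in Drop-seq, and 3 higher and 1 lower between platforms. With values below 3 left out, the 10X shares were 2.88% and 2.16%, detected members were 445 at 25 cycles and 140 and 208 in 10X, and the 10X ratio was 0.748, with 0 members higher and 4 lower. With values as stored, 22 members were higher and 18 lower between platforms. Over all barcodes, the shares were 7.26% at 25 cycles and 4.88% and 4.06% in 10X, Drop-seq detected 2109, 863 and 1074, the 10X ratio was 0.833, and 4 members were higher in 10X, 2 in Drop-seq and 30 between platforms. With the number of cells halved, the 10X shares were 5.19% and 4.61%, with 3 members higher and 7 lower in 10X and 9 higher and 3 lower between platforms. Barcodes with at least 100 counts gave 3 higher in 10X and 3 lower between platforms. At 80% human counts the 25-cycle share was 7.36%, and at 95% its detected members were 496, with 1 member lower in Drop-seq. Identifiers of the same version gave 7.32%, 7.10%, 7.29%, 4.86% and 4.35%, and matched identifiers as the denominator gave 8.15%, 7.96%, 8.25%, 5.41% and 4.83%. Asking for 30 counts found 4 members higher and 18 lower in 10X, 1 higher in Drop-seq, and 27 higher and 9 lower between platforms, and asking for 100 found 0 and 4 in 10X and 6 and 3 between platforms. Centring on the median ratio of all transcripts put 3 members higher in 10X. Entries below the smallest stored value limit the depth at which low members can be seen.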
